A study of Mus musculus with 21 samples.

Results

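The genes described here act at the step from G1 into S phase and in the copying of DNA. They are a list of 43 genes in 9 role groups: 4 E2F factors, 2 E-type cyclins, 4 genes of origin licensing, the 6 subunits of the MCM ring, 6 genes that turn the ring into an active helicase, 5 polymerase and primase subunits, 7 genes of the sliding clamp and lagging strand, 5 genes of nucleotide supply, and 4 genes of chromatin assembly and histone supply. The members were chosen by name, with earlier results of these data known, and each was read from the brightest probe of its gene. Shares of members set beside those of all genes are therefore descriptions. Of the 43 genes, 37 were detected on at least 3 arrays and entered the tests, among 12531 genes tested in all. The other 6 were Orc1, Pola1, Prim1 and Slbp, which were detected on 0 arrays, and E2f7 and E2f8, which were detected on exactly the 2 NPK_3Month arrays.

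Before S phase, origins of replication are licensed when the origin recognition complex, Cdc6 and Cdt1 load the MCM ring onto DNA, and cyclin E with its kinase then helps to start the rings. E2F factors, held in check by the retinoblastoma protein until G1 is passed, bind the promoters of many of these genes and switch them on together. For that reason the mRNAs of this list are widely used as a readout of proliferating cells in tumours, and prostate epithelium divides slowly in the adult.

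Expression was measured in 21 mouse tumours of the anterior prostate on Illumina bead arrays, in a study of ETV4 under joint activation of PI3-kinase and RAS signalling. The genotype labels give only the letters NP (8 arrays) and NPK (8 arrays with no stage, 3 arrays titled NPK_1Month and called early, and 2 arrays titled NPK_3Month and called late). In published accounts of this model, both genotypes carry an inducible Cre driven by the Nkx3.1 locus, and NP is the control that shares all but 1 of the alleles of NPK. The labels give no alleles, no ages and no starting point for the months. Replicates 4 and 5 of NP differed by an SD of 0.13 in log2 value over bright genes, against 0.31 for the next closest pair of replicates, and were counted as 1 sample, so that n is 7 for NP, 8 for NPK, 3 for NPK_1Month and 2 for NPK_3Month.

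No chip held both NP and NPK arrays, and the 5 arrays titled by month were all on 1 further chip, alone. Chip therefore cannot be told apart from genotype in the comparisons with NP, or from the month titles in those with the NPK arrays without a month, whereas NPK_3Month and NPK_1Month were compared within 1 chip. Between 15855 and 20405 probes were detected per array, and between 30 and 39 of the 43 members. NP arrays detected 19063 to 20405 probes and NPK arrays 15855 to 18226. The intensity needed for detection scaled with each array's noise SD, 11.9 to 17.4 on NP arrays and 22.0 to 26.1 on NPK replicates 1 to 5. Counts of arrays detected therefore do not compare NP and NPK at a common limit. The epithelial label was checked against luminal keratin and junction genes, of which 9 are named on the array: all 9 were detected in NP, 8 in NPK and in NPK_1Month, and 7 in NPK_3Month. The labels give each tumour an ID number and do not say that each is a different mouse, so the p-values reflect sample-to-sample spread and may in part be technical. All values below are background-corrected, quantile-normalized intensities on the log2 scale. Changes are differences of group means with the standard error from limma, and a gene was called at a Benjamini-Hochberg adjusted p under 0.05 over all 12531 genes.

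With quantile normalization, NPK tumours read higher than NP tumours for many replication genes, and lower for a few. Of the 37 members tested, 19 were higher in NPK, 5 were lower and 13 did not pass, and 15.0% and 18.3% of all genes tested were called higher and lower. The largest rises were in E2f1 (1.58), Mcm10 (1.41) and Tk1 (1.17). The falls were in Rfc4 (-0.99), Lig1 (-0.83), Cdc6 (-0.71), Pcna (-0.66) and Gins3 (-0.60). The median change over the 37 members was 0.33, against -0.0067 over all genes. In 7 members the NPK range lay wholly above the NP range, which is 18.9% of those tested and was true of 2.87% of all genes: E2f1, Mcm3, Mcm10, Rrm1, Tyms, Tk1 and Chaf1a. In 0 members it lay wholly below, as it did in 5.20% of all genes.

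The count of higher members, and whether more were called higher than lower, depended on how the arrays were scaled. With arrays scaled to a common median in place of quantile normalization, the median change of all genes moved by -0.37. Then 5 members were called higher and 11 lower, and of all 12531 genes 760 were called higher and 5482 lower. The members' median became -0.14, which lies 0.24 above that of all genes. The 5 that stayed called were E2f1, Ccne2, Mcm10, Cdc45 and Tk1, and the calls of the other 14, in the MCM ring, nucleotide supply and chromatin groups among others, were lost. E2f1 and Mcm10 are the members that were called higher in NPK under each of the 39 settings tried.

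The 3-month tumours stood apart, though their 2 arrays were the least alike pair of replicates in the series. Over bright genes these 2 arrays differed by an SD of 0.85 in log2 value, against 0.71 for the next least alike pair. Of 3259 bright genes, 386 were more than 2-fold apart between them. Of the 37 members, 33 were higher in NPK_3Month than in NPK_1Month and 0 were lower, where 9.44% and 9.77% of all genes were called higher and lower. The 4 that did not pass (E2f2, Ccne1, Cdc6 and Gins4) also had positive changes, from 0.46 to 1.27. The median change was 1.57, and 0.82 with 24 members called higher in the authors' processed values, whose transform is unknown. With the 2 groups fitted alone, 23 were called higher. In 36 of the 37 members, 97.3%, both NPK_3Month arrays lay above all 3 NPK_1Month arrays, which was true of 25.4% of all genes, and E2f2 was the exception. By group mean, NPK_3Month was the highest of the 4 groups in 36 of the 37 members (32.9% of all genes) and NP was the highest for Lig1. Without replicate 1 of NPK_3Month, which leaves a single 3-month sample that is assumed to vary like the other groups, 20 members were called higher.

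**Figure D1:**
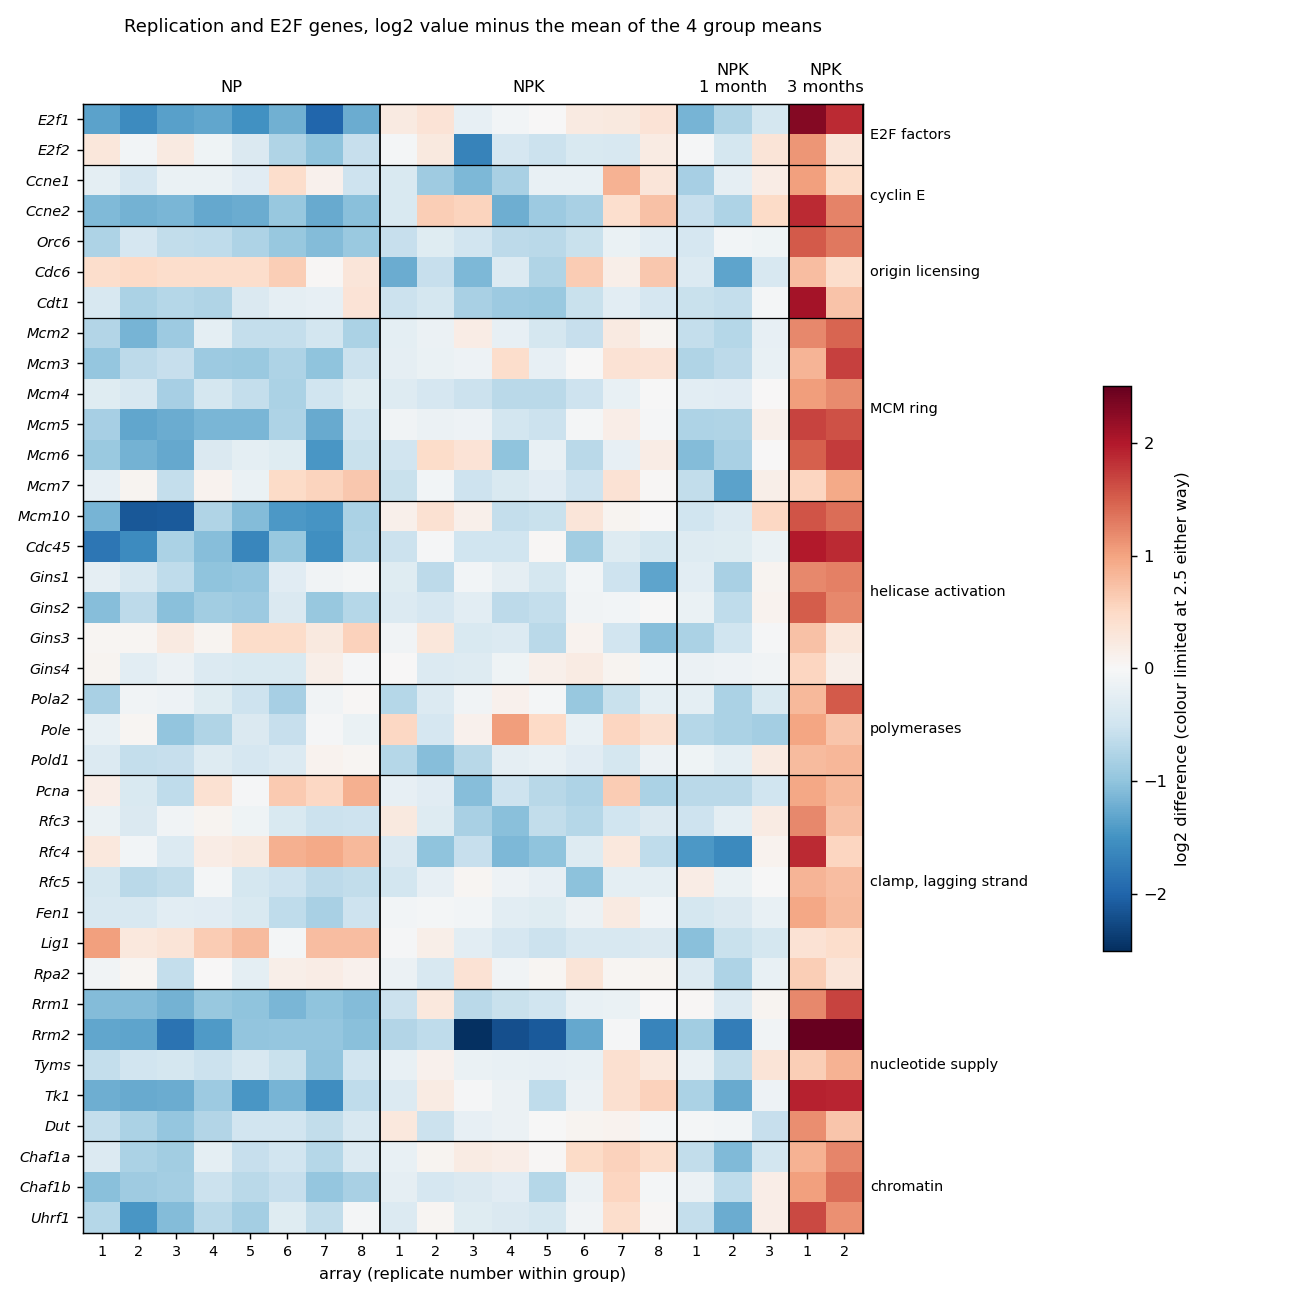
Log2 value of each of the 37 tested members (rows, by role) on each of the 21 arrays (columns, by group), as the difference from the mean of the 4 group means of that gene; red is higher and blue is lower, and colours stop at 2.5 either way. The 2 NPK_3Month columns are red in nearly every row, while the NPK columns are mixed, with E2f1, Mcm10 and Tk1 above NP and Lig1 and Rfc4 below.

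**Figure D2:**
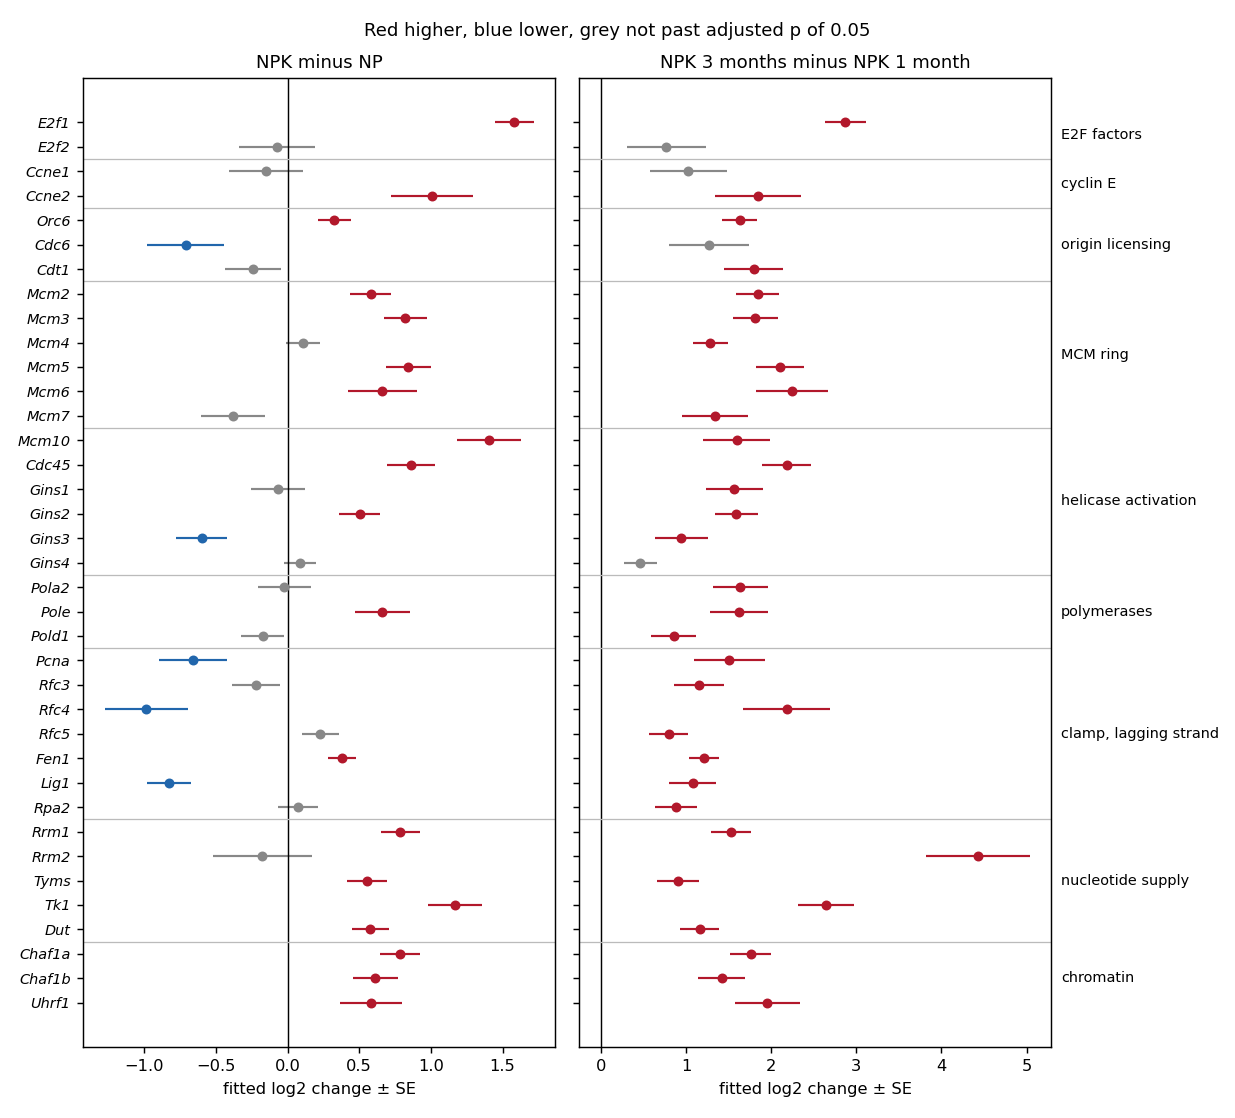
Fitted log2 change of each member with its standard error (bars) for NPK minus NP (left) and NPK_3Month minus NPK_1Month (right); red marks genes called higher, blue lower and grey not called. On the left 19 genes are red and 5 blue, and on the right 33 are red and none is blue. The counts on the left become 5 and 11 when arrays are scaled to a common median, where 760 and 5482 of all 12531 genes are called higher and lower.

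Of the 4 E2F factors 2 were tested, and E2f1 had the largest rise of the tested members in NPK against NP. E2f1, an activator of S-phase genes, had log2 values in NP of 5.98, 6.59 and 6.75 (lowest, median and highest of 7 samples). In NPK they were 7.76, 8.17 and 8.30 (of 8 samples). The NPK_1Month arrays gave 6.79, 7.21 and 7.52, and the NPK_3Month arrays 10.26 and 9.83. The NP, NPK and NPK_3Month values did not overlap, and the NPK_1Month arrays fell between those of NP and NPK. E2f1 was 2.99-fold higher in NPK than in NP (change 1.58 ± 0.14, adjusted p = 1.804e-06) and 7.31-fold higher in NPK_3Month than in NPK_1Month (2.87 ± 0.24, adjusted p = 1.102e-06). The rise held chip by chip, with means of 6.54 and 6.48 on the 2 NP chips and of 8.01, 8.19 and 8.30 on the 3 NPK chips.

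E2f2, a second activator, changed by -0.074 ± 0.26 in NPK against NP and by 0.77 ± 0.46 at 3 months against 1 month, and passed in neither (adjusted p = 0.849 and 0.286). E2f7 and E2f8 are atypical family members that repress E2F targets later in S phase. E2f8 gave 6.45 and 6.54 on the NPK_3Month arrays and was not well above background on any of the other 19 arrays, where its highest value was 5.09. That is at least 1.95-fold over NPK_1Month and at least 1.46-fold over NPK, taking the mean at 3 months over the lowest level that counts as detected. E2f7 gave 6.59 and 5.97 at 3 months and bounds of at least 1.68-fold and 1.26-fold, and was likewise not well above background elsewhere. Neither gene had a test, because a gene had to be detected on at least 3 arrays.

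**Figure D3:**
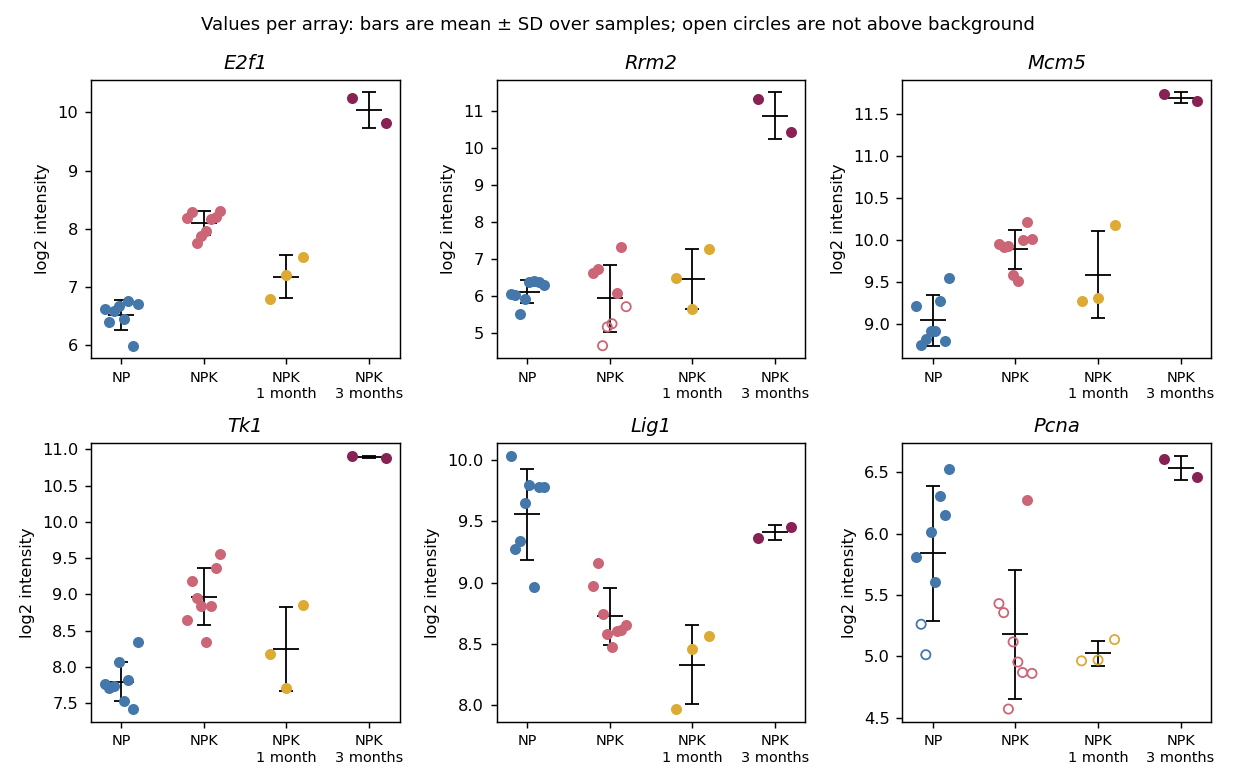
Log2 intensity of 6 members on every array by group, with mean ± SD over samples (bars; replicates 4 and 5 of NP are drawn as 2 points and averaged in the bar); open circles are arrays where the probe was not above background. E2f1, Mcm5 and Tk1 have higher means in NPK than in NP and the highest in NPK_3Month, with NPK_1Month between NP and NPK. The NP and NPK ranges of Mcm5 overlap. Rrm2 stands above 10 in NPK_3Month alone, Lig1 is highest in NP, and Pcna is above background on a single NPK array.

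Of the cyclins that drive the G1/S kinase, Ccne2 changed and Ccne1 did not pass. Ccne2 (cyclin E2) read 4.64, 4.76 and 4.95 in NP, where it was not well above background on any of 8 arrays, and 4.67, 5.92 and 6.64 in NPK, where it was detected on 4 of 8. It read 5.32, 5.13 and 6.39 in NPK_1Month, detected on 1 of 3 arrays, and 7.77 and 7.15 in NPK_3Month. The NPK samples were spread from the background level upward and overlapped NP, while both 3-month arrays lay above all others. The rise in NPK was at least 1.18-fold (adjusted p = 0.0118), and the change at 3 months against 1 month was 1.85 ± 0.51 (adjusted p = 0.0153). For Ccne1 (cyclin E1), NP read 5.30, 5.59 and 6.25 and NPK 4.69, 5.53 and 6.68, with 4.98, 5.59 and 6.00 at 1 month and 6.84 and 6.26 at 3 months. Its 3-month arrays were above those at 1 month, but the changes of -0.15 ± 0.26 in NPK against NP and 1.03 ± 0.45 at 3 months did not pass (adjusted p = 0.679 and 0.127).

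Among the genes that license origins, Orc6, a subunit of the origin recognition complex, rose in both comparisons. It read 9.26, 9.57 and 9.92 in NP, 9.68, 9.83 and 10.19 in NPK, 9.92, 10.27 and 10.24 in NPK_1Month and 11.88 and 11.67 in NPK_3Month. The NP and NPK ranges overlapped, and the 3-month arrays lay more than a whole log2 unit above every other array. The change was 0.33 ± 0.12 in NPK (adjusted p = 0.0377), which turned to -0.14 with median scaling and was lost when any of several single samples was left out, and 1.63 ± 0.20 at 3 months (adjusted p = 3.578e-05). Cdc6, which loads the MCM ring with Cdt1, was lower in NPK (-0.71 ± 0.27, adjusted p = 0.0465). It was detected on 3 of 8 NPK arrays against 8 of 8 NP arrays, with a higher detection limit on NPK replicates 1 to 5. The lower call of Cdc6 depended on the chips: without the chip of NPK replicates 1 to 5 the change was 0.096. At 3 months Cdc6 did not pass (1.27 ± 0.47, adjusted p = 0.0653). Cdt1, its partner, changed by -0.24 ± 0.20 in NPK (adjusted p = 0.353) and rose by 1.80 ± 0.34 at 3 months (adjusted p = 0.00112), with 3-month arrays at 10.68 and 9.32.

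The MCM ring, Mcm2 to Mcm7, is the core of the replicative helicase, and its 6 subunits work in equal numbers in 1 ring. All 6 were higher in NPK_3Month than in NPK_1Month, against 9.44% of all genes. In NPK against NP 4 of 6 were higher, against 15.0% of all genes. All 4 lost the call with median scaling, and Mcm6 also without any of several single samples. Mcm2 read 7.88, 8.31 and 8.63 in NP and 8.48, 8.87 and 9.28 in NPK, with 8.44, 8.33 and 8.84 at 1 month and 10.26 and 10.50 at 3 months. Mcm3 read 6.49, 6.72 and 6.96 in NP and 7.26, 7.43 and 7.93 in NPK, with 6.74, 6.83 and 7.30 at 1 month and 8.34 and 9.20 at 3 months. Mcm5 read 8.75, 8.92 and 9.56 in NP and 9.52, 9.95 and 10.22 in NPK, with 9.28, 9.31 and 10.19 at 1 month and 11.74 and 11.65 at 3 months. In all 3 genes the 3-month arrays were above every other array, and in Mcm3 the NP and NPK ranges did not touch. The rises in NPK were 0.58 ± 0.14 for Mcm2, 0.82 ± 0.15 for Mcm3, 0.84 ± 0.16 for Mcm5 and 0.66 ± 0.24 for Mcm6, with adjusted p of 0.00457, 0.000497, 0.000588 and 0.0421. At 3 months the 6 changes ran from 1.29 (Mcm4, adjusted p = 0.000303) to 2.25 (Mcm6, adjusted p = 0.00102).

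Mcm4 and Mcm7 did not pass in NPK, with changes of 0.11 ± 0.12 and -0.38 ± 0.22 (adjusted p = 0.524 and 0.197). The probes of Mcm7 disagreed there: a dimmer probe, detected on 20 arrays, was higher in NPK by 0.63 ± 0.16 (adjusted p = 0.00535). At 3 months both of its probes rose, by 1.34 and 1.98. Of the 2 dimmer probes of Mcm6, one rose by 0.97 in NPK and the other, detected on 10 arrays, changed by 0.65 ± 0.78 and did not pass. At 3 months these probes changed by 1.89 and 0.87, and the second did not pass.

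Because the MCM genes moved together at 3 months, the promoters of the ring and of the other member with 2 words are shown where they hold 2 or more, taken from RefSeq on the GRCm38.p6 build from 250 bases before to 50 bases after the start site, on the strand of the gene. The windows were searched on both strands for the E2F words TTTCCCGC, TTTGGCGC, TTTCGCGC and TTTGCCGC, which are set in capitals. Of the 43 members 37 had a window in the table. A word was found in 15 of these 37 genes (40.5%), against 2.6% of the 27025 genes with a promoter window, and 3.98% of the genes whose window had a G and C content of 54.3 to 66.7%, the middle range of the members. Windows with 2 or more words were 5 of the members' 43 windows (11.6%) against 0.1% of all 32851, and 4 of these 5 belong to the MCM ring. The words overlap in Mcm5 and in the first pair of Mcm6, which is why the capitals run together there.
Mcm3, chr1:20820263-20820562, minus strand: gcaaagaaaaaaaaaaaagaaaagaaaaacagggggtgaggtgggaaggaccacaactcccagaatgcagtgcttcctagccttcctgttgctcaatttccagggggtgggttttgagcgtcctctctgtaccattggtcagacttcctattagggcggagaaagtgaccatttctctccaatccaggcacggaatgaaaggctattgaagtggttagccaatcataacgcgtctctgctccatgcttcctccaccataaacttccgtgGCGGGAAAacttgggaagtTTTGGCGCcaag
Mcm5, chr8:75109259-75109558, plus strand: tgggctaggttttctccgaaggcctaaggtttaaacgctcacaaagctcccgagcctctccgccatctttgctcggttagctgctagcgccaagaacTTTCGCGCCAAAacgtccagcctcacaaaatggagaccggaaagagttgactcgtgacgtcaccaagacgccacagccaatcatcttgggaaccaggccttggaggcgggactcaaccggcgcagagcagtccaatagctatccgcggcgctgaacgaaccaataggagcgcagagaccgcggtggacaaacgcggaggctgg
Mcm6, chr1:128359656-128359955, minus strand: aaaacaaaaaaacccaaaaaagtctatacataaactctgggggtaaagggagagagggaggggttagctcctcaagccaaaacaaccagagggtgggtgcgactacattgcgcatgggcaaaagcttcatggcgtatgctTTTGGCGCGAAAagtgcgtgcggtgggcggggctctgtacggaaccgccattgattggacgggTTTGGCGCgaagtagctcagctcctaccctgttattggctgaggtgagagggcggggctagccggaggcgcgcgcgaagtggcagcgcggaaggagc
Mcm7, the second of its windows, chr5:138171834-138172133, minus strand: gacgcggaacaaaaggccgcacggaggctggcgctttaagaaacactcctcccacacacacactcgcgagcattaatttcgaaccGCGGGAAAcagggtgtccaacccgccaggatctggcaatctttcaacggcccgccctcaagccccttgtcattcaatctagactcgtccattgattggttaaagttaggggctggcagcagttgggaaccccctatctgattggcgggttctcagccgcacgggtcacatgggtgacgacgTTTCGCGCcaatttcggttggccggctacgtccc
Rfc3, chr5:151651159-151651458, minus strand: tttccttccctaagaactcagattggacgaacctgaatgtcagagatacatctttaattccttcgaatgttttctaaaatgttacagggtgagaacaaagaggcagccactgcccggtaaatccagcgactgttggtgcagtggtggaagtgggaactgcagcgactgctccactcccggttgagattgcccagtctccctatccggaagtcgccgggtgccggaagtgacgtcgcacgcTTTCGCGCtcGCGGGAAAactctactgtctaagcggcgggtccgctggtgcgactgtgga
A match is a run of letters and not a measured binding site. The 12 tested members with a word had a median change of 1.31 at 3 months against 1 month. The 19 without one in the windows searched had 1.60. In NPK against NP these medians were -0.20 and 0.56. E2f1, Tk1 and Rrm2 held none of these words in the windows searched. The E2f1 window reads as protein-coding sequence over much of its length. A promoter upstream of the E2f1 coding region was therefore not covered, and the place of E2f1 among the 19 is uncertain. Sequence outside the windows, such as that at other start sites, was not searched, so E2f1, Tk1 and Rrm2 may hold words elsewhere.

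The genes that activate the helicase, Mcm10, Cdc45 and the GINS subunits, were higher in 5 of 6 members at 3 months than at 1 month, against 9.44% of all genes. In NPK against NP 3 of 6 were higher and 1 lower, against 15.0% and 18.3% of all genes. Mcm10, which helps start the loaded ring, read 5.68, 6.36 and 7.01 in NP, 7.19, 7.89 and 8.17 in NPK, 7.29, 7.45 and 8.31 in NPK_1Month and 9.36 and 9.20 in NPK_3Month. Every NPK array of each kind was above every NP sample. Its change was 1.41 ± 0.22 in NPK (2.65-fold, adjusted p = 0.000149) and 1.60 ± 0.39 at 3 months against 1 month (adjusted p = 0.0073), a call lost without replicate 1 of NPK_3Month. A dimmer probe of Mcm10, detected on 6 arrays, changed by 0.38 ± 0.20 in NPK and did not pass (adjusted p = 0.159). That probe rose by 1.58 at 3 months against 1 month. Cdc45, a part of the active helicase, read 5.31, 5.78 and 6.36 in NP and 6.26, 6.66 and 7.15 in NPK. Its month arrays gave 6.80, 6.83 and 6.96 and 9.11 and 8.99. The 3 NPK_1Month arrays were within the NPK range and the 3-month arrays stood well clear of it. Cdc45 rose by 0.86 ± 0.17 in NPK (adjusted p = 0.000717) and by 2.18 ± 0.29 at 3 months (adjusted p = 5.931e-05).

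The 4 subunits of GINS, which joins Cdc45 on the ring, did not move alike in NPK. Gins2 rose by 0.50 ± 0.14 (adjusted p = 0.0107), Gins3 fell by 0.60 (standard error 0.18, adjusted p = 0.0145), and Gins1 and Gins4 changed by -0.068 ± 0.19 and 0.084 ± 0.11 and did not pass. Gins3 was a dim probe, detected on 8 NP arrays and 2 NPK arrays, with a higher detection limit on NPK replicates 1 to 5. At 3 months Gins1, Gins2 and Gins3 rose by 1.57, 1.59 and 0.95, and Gins4 (0.46 ± 0.20, adjusted p = 0.111) did not pass.

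Of the polymerases, Pole, the catalytic subunit of the leading-strand enzyme, was higher in NPK. All 3 measured subunits were higher at 3 months, against 9.44% of all genes. Pole read 5.17, 5.96 and 6.21 in NP, 5.73, 6.60 and 7.19 in NPK, 5.45, 5.37 and 5.31 in NPK_1Month and 7.15 and 6.84 in NPK_3Month. It was not well above background on any of the 3 NPK_1Month arrays, and the 3-month arrays lay within the NPK range. The rise in NPK against NP was 0.66 ± 0.19 (adjusted p = 0.0136), a call lost with median scaling, and the rise at 3 months was at least 2.76-fold (adjusted p = 0.00241). Pola2, an accessory subunit of the primase-bearing polymerase, read 6.83, 7.54 and 7.69 in NP, 6.73, 7.37 and 7.77 in NPK, 7.43, 6.88 and 7.29 in NPK_1Month and 8.48 and 9.20 in NPK_3Month. NP and NPK covered nearly the same range for Pola2, with a change of -0.023 ± 0.18 (adjusted p = 0.934), whereas the change at 3 months was 1.64 ± 0.32 (adjusted p = 0.00141). Pold1, the catalytic subunit of the lagging-strand polymerase, did not pass in NPK (-0.17 ± 0.15) and rose by 0.86 ± 0.26 at 3 months (adjusted p = 0.0286).

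Of the 7 genes of the sliding clamp and the lagging strand, 1 was higher in NPK, 3 were lower and 3 did not pass, where 15.0% and 18.3% of all genes were called higher and lower. Each of the 3 lower calls was lost under some settings, as given below. At 3 months all 7 were higher than at 1 month by their brightest probe, against 9.44% of all genes. Lig1, the ligase that seals Okazaki fragments, read 8.97, 9.73 and 10.04 in NP, 8.47, 8.63 and 9.16 in NPK, 7.97, 8.46 and 8.57 in NPK_1Month and 9.37 and 9.46 in NPK_3Month. The NPK samples lay below all but the lowest NP sample, the 1-month arrays lay below every NP sample, and the 3-month arrays lay inside the NP range. Lig1 was 1.78-fold lower in NPK (-0.83 ± 0.15, adjusted p = 0.000573) and 2.11-fold higher at 3 months than at 1 month (1.08 ± 0.27, adjusted p = 0.00878). Of its 3 dimmer probes, none passed in NPK, with changes of 0.35, -0.29 and -0.25, and the mean of all its probes changed by -0.26 (adjusted p = 0.142). At 3 months these 3 probes changed by 1.26, 0.60 and -0.033, and only the first of them passed.

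Fen1, the nuclease that trims Okazaki fragments, was the member of this group that rose in NPK. It read 9.47, 9.87 and 10.01 in NP, 9.98, 10.19 and 10.49 in NPK, 9.83, 9.90 and 10.08 in NPK_1Month and 11.24 and 11.07 in NPK_3Month. The change of 0.38 ± 0.10 in NPK (adjusted p = 0.00728) became -0.069 with median scaling, and that at 3 months was 1.21 ± 0.18 (adjusted p = 0.000113). Pcna, the clamp itself, was dim on this array. It read 5.01, 5.81 and 6.53 in NP (detected on 6 of 8 arrays), 4.57, 5.04 and 6.27 in NPK (on 1 of 8), 4.96, 4.97 and 5.14 in NPK_1Month (on 0 of 3) and 6.61 and 6.46 in NPK_3Month (on both). The detection limit was higher on NPK replicates 1 to 5. The fall of Pcna in NPK was -0.66 ± 0.24 (adjusted p = 0.0401) and was lost when single samples of either group were left out. Its rise at 3 months was at least 2.01-fold (adjusted p = 0.0164).

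Rfc3, Rfc4 and Rfc5 are subunits of the loader that opens the clamp. Rfc4 was lower in NPK (-0.99 ± 0.29, adjusted p = 0.0134), with chip means of 7.20 and 8.02 in NP and of 6.32, 7.10 and 6.50 in NPK, and the call was lost without the chip of NP replicates 6 to 8. Rfc3 and Rfc5 did not pass in NPK (-0.22 ± 0.17 and 0.23 ± 0.13). At 3 months the 3 rose by 1.15, 2.18 and 0.80, while a dimmer probe of Rfc4, detected on 3 arrays, changed by 0.14 ± 0.26 and did not pass. Rpa2, which coats single-stranded DNA, changed by 0.073 ± 0.14 in NPK (adjusted p = 0.716) and rose by 0.89 ± 0.25 at 3 months (adjusted p = 0.0164). That rise came from its brightest probe, while its dimmer probes changed by -0.14 ± 0.37 and -0.068 ± 0.28 at 3 months and did not pass.

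Nucleotide supply held the largest single change. Rrm2, the small subunit of ribonucleotide reductase, read 5.50, 6.15 and 6.39 in NP, 4.65, 5.89 and 7.32 in NPK, 6.48, 5.63 and 7.26 in NPK_1Month and 11.33 and 10.44 in NPK_3Month. NPK was the most spread group for Rrm2, with the probe above background on 4 of 8 arrays, and both 3-month arrays stood more than 3 log2 units above every other array. In intensity units the 3-month arrays were at 1328 and 2474, and the highest of all other arrays was 124.9. The change in NPK against NP was -0.18 ± 0.35 and did not pass (adjusted p = 0.719), and Rrm2 was 21.6-fold higher at 3 months than at 1 month (4.43 ± 0.61, adjusted p = 7.134e-05).

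Tk1, the salvage kinase for thymidine, read 7.42, 7.77 and 8.34 in NP, 8.35, 8.89 and 9.56 in NPK, 8.18, 7.71 and 8.86 in NPK_1Month and 10.91 and 10.88 in NPK_3Month. The NP and NPK samples did not overlap, though the highest NP sample (8.34) and the lowest NPK sample (8.35) nearly met, and the 1-month arrays spanned both. Tk1 was 2.25-fold higher in NPK (1.17 ± 0.19, adjusted p = 0.000171) and 6.25-fold higher at 3 months (2.64 ± 0.33, adjusted p = 3.546e-05). Its dimmer probe, detected on 12 arrays, changed by -0.46 ± 0.21 in NPK and did not pass, and rose by 2.05 at 3 months. Rrm1, the large reductase subunit, rose by 0.79 ± 0.13 in NPK and 1.53 ± 0.24 at 3 months (adjusted p = 0.000271 and 0.00018). Tyms, which makes thymidylate, rose by 0.56 and 0.90, and Dut, which removes dUTP, by 0.58 and 1.16. The NPK calls of Rrm1, Tyms and Dut were lost with median scaling. The rise of Tyms in NPK came from its brightest probe, while 3 dimmer probes changed by 0.054, -0.099 and -0.77, the last of these past the threshold. At 3 months these 3 probes changed by 1.05, 0.57 and 0.71, and none passed.

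All 3 chromatin genes tested were called higher in both comparisons, against 15.0% of all genes in NPK and 9.44% at 3 months. In NPK against NP, though, none of the 3 stayed called with median scaling, and Uhrf1 also lost its call without any of several single samples. Chaf1a, the large subunit of the factor that places histones behind the fork, read 7.05, 7.43 and 7.58 in NP, 7.73, 8.10 and 8.48 in NPK, 7.30, 6.82 and 7.46 in NPK_1Month and 8.77 and 9.13 in NPK_3Month. The NPK samples were all above NP, while the 1-month arrays fell back into the NP range or below it. Its changes were 0.78 ± 0.14 in NPK (adjusted p = 0.000339) and 1.76 ± 0.24 at 3 months (adjusted p = 7.123e-05). Chaf1b, its partner, rose by 0.61 and 1.42, and Uhrf1, which guides DNA methylation to copied strands, by 0.58 and 1.95.

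Early NPK tumours were then set against NP, and late ones against NPK tumours without a month. These comparisons share their NP, NPK and month samples with those above, so they are not further evidence. Against NP, NPK_1Month was higher in 9 members and lower in 4, which is 24.3% and 10.8% of those tested. Of all genes, 17.7% and 19.7% were called. The 9 were E2f1 (0.66), Orc6 (0.58), Mcm5 (0.54), Mcm10 (1.32), Cdc45 (0.99), Gins2 (0.58), Rfc5 (0.54), Rrm1 (1.00) and Chaf1b (0.61), and the 4 were Rfc4 (-1.37), Lig1 (-1.22), Cdc6 (-1.07) and Gins3 (-0.71). The NPK_1Month and NP ranges were apart in 7 members with NPK_1Month above and in 3 with it below, against 18.1% and 19.6% of all genes. The 7 are 18.9% of the members tested, which is near the share of all genes. Without replicate 3 of NPK_1Month, the array of that group with the highest member mean (8.10 against 7.49 and 7.65), 5 were called higher. With median scaling 4 were higher and 7 lower, where 1421 and 3321 of all 12531 genes were called higher and lower. None of the 4 lower calls was kept with the seminal vesicle and skeletal muscle means or the T and NK and B cell means as covariates, and 2, those of Rfc4 and Lig1, were kept with chip as a random block.

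Against NPK, NPK_3Month was higher in 33 members and lower in 0, where 20.8% and 18.4% of all genes were called. The members that did not pass were Cdc6, Gins4, Pole and Rpa2. Rrm2 was 30.9-fold higher, E2f1 3.86-fold and Cdc45 4.98-fold. In 31 members the 3-month range was wholly above that of NPK, against 19.5% of all genes. Without replicate 1 of NPK_3Month the count was 24, and with median scaling 37.

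Of 55 listed other genes of the same machinery 42 were tested. In NPK against NP 10 were higher and 6 lower, which is 23.8% and 14.3%, against 15.0% and 18.3% of all genes. The smallest adjusted p belonged to Topbp1, a scaffold of helicase start (0.89 ± 0.13, adjusted p = 7.532e-05), Rpa3 (0.61 ± 0.12, adjusted p = 0.000893), the topoisomerase Top2a (1.25 ± 0.27, adjusted p = 0.00171) and the polymerase delta subunit Pold3 (-0.65 ± 0.15, adjusted p = 0.00275). The other falls were in Pole3 (-0.35), Pole4 (-0.71), Dck (-0.57), Rrm2b (-0.48) and Usp1 (-0.83), which are polymerase epsilon subunits, a nucleoside kinase, a damage-linked reductase subunit and a deubiquitinase. At 3 months against 1 month 23 were higher (54.8%, against 9.44% of all genes) and 0 lower, led by the fork protection gene Tipin (1.71 ± 0.25, adjusted p = 0.000122), the alternative clamp loader gene Chtf18 (1.88 ± 0.29, adjusted p = 0.000184), Rpa3 (1.24 ± 0.21, adjusted p = 0.000486) and Dbf4, the activator of the Cdc7 kinase (2.08 ± 0.37, adjusted p = 0.000614).

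Of 13 listed partners and relatives of the E2F factors 11 were tested. In NPK against NP 3 were higher and 2 lower, which is 27.3% and 18.2%, against 15.0% and 18.3% of all genes. E2f5, a repressor that works with pocket proteins, was lower (-1.02 ± 0.17, adjusted p = 0.000215), as was Rb1, which encodes the retinoblastoma protein (-0.76 ± 0.18, adjusted p = 0.00294). Tfdp1, the DNA-binding partner of E2F factors, was higher (0.58 ± 0.10, adjusted p = 0.000365), with the repressors E2f4 (0.66 ± 0.14, adjusted p = 0.0018) and E2f6 (0.35). At 3 months against 1 month 4 were higher and 0 lower: Tfdp1 (1.15 ± 0.18, adjusted p = 0.000216), Lin54 of the complex that binds cell cycle promoters (0.79 ± 0.19, adjusted p = 0.00534), the pocket protein gene Rbl1 (1.21 ± 0.35, adjusted p = 0.0209) and the activator E2f3 (1.09 ± 0.32, adjusted p = 0.0226).

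Some members were read by more than 1 probe. For 13 members, 21 further probes were detected. Against NP, 11 of these had the sign of the brightest probe in NPK and 10 the opposite sign. At 3 months against 1 month, 18 had the same sign and 3 the opposite. The direction of single members in NPK against NP thus depends on the probe more often than their direction at 3 months, though this difference was not tested.

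Levels of other cell types moved with the groups, and in bulk tumour RNA fewer cells of a type and less RNA per cell cannot be told apart. In NPK against NP, 5 of 6 T and NK cell genes and 3 of 4 B cell genes were lower, against 18.3% of all genes. Higher were 7 of 7 endothelial, 5 of 8 fibroblast and 5 of 6 smooth muscle genes, against 15.0% of all genes. The mean T and NK cell level was 8.36 (7.49 to 9.35) in NP and 7.06 (6.30 to 7.85) in NPK, and in NPK_3Month it was 4.95, with all 8 named genes, Cd3e and Cd2 among them, below background. When the T and NK and the B cell means entered the fit as covariates, a setting added after the data were seen, 7 members were called higher in NPK than in NP and 0 lower.

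Secretory and muscle genes moved between the months. Seminal vesicle genes had a mean of 13.1 (11.03 to 14.5) in NPK_1Month and 6.65 (5.61 to 7.69) in NPK_3Month, against 6.44 in NP and 10.0 (6.47 to 14.6) in NPK, and skeletal muscle genes had means of 9.14, 6.04, 5.25 and 6.18 in the same groups. Luminal genes were at 11.7 in NPK_1Month and 9.56 in NPK_3Month, with 5 of 8 called lower, against 9.77% of all genes. With the seminal vesicle and skeletal muscle means as covariates, 19 members were called higher at 3 months than at 1 month and 0 lower, and with the T and NK and the B cell means 25 and 0. Their part in the members' changes was otherwise not tested.

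Mitotic genes rose with the replication genes at 3 months, and separated NP from NPK more than the replication genes did. Cdk1, Aurka, Plk1 and Birc5, the 4 tested of 6 listed, were called higher in NPK than in NP and at 3 months than at 1 month. Of all genes 15.0% and 9.44% were called higher in these comparisons. Their mean was 7.06 ± 0.24 (SD, n = 7) in NP, 8.39 ± 0.48 (n = 8) in NPK, 8.30 ± 0.67 (n = 3) in NPK_1Month and 10.8 ± 0.081 (n = 2) in NPK_3Month. The mean of the 37 replication members was 7.64 ± 0.13, 7.90 ± 0.17, 7.75 ± 0.31 and 9.34 ± 0.12 in these groups. For both lists the 3-month samples lay above all others. For the replication members NP, NPK and NPK_1Month overlapped. For the mitotic genes the lowest samples of NPK (7.72) and NPK_1Month (7.71) lay above the highest of NP (7.38).

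**Figure D4:**
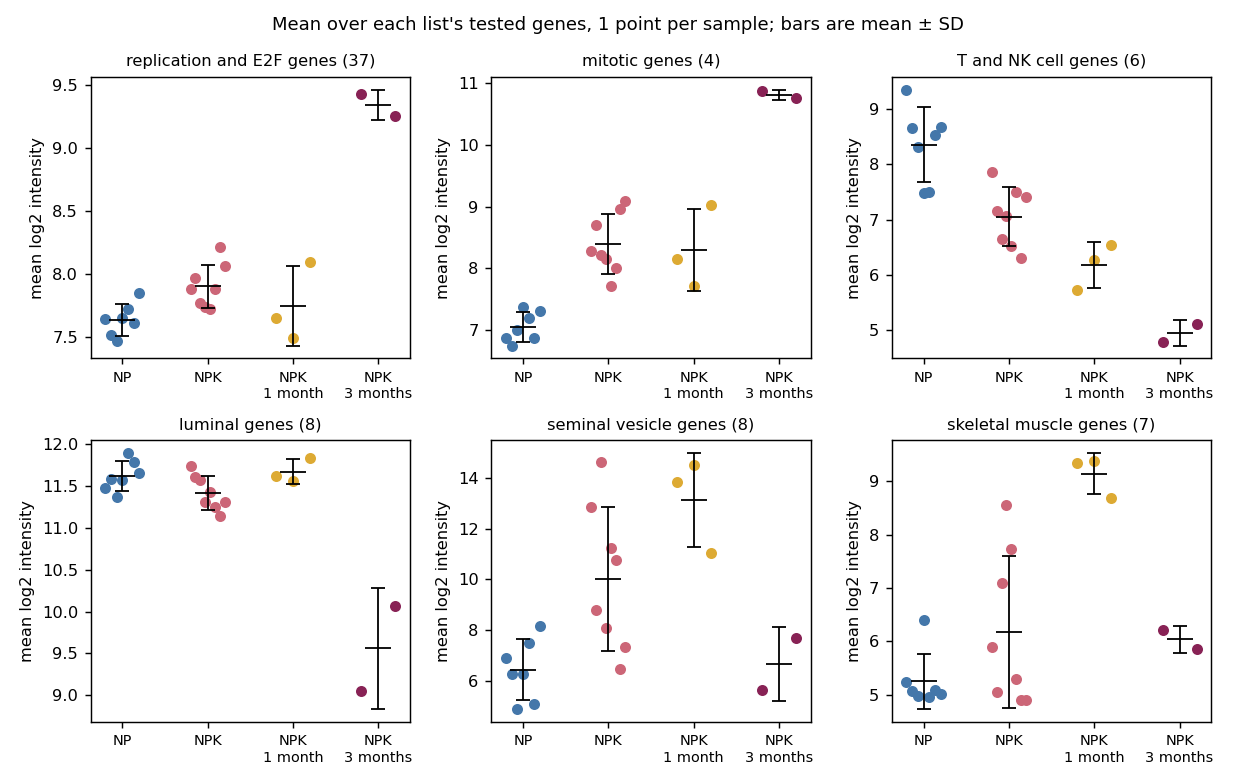
Mean log2 intensity over the tested genes of each of 6 lists (number of genes in the titles), 1 point per sample by group, with mean ± SD (bars). The replication and mitotic panels stand highest in NPK_3Month, at 9.34 and 10.8, where the T and NK panel is lowest at 4.95, and the seminal vesicle and skeletal muscle panels are highest in NPK_1Month.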

How the data were processed

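RNA of 21 mouse prostate tumours was measured on Illumina bead arrays, and the titles and genotype labels gave the groups. The alleles behind the genotype letters are not reported here. The deposited table gives a linear intensity for each of 45126 probes; values below 0 show that the authors subtracted background, and arrays were not yet normalized to each other. Neither control probes nor detection p-values were used here. A second deposited table carries log2 values processed by the authors, whose transform and centring are unknown; it served only as an alternative, within the NP and NPK arrays and within the month arrays. Per the submitters' processing notes, BeadStudio and lumi were used, and their roles and versions are not given in the sources used here.

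In place of the planned correction with control probes, a normal-exponential model was fitted per array, its background centred on 0 and its noise SD estimated from negative values. After an offset of 16, quantile normalization and log2 followed. A probe was called detected where noise alone would reach its intensity with a probability of 0.01 or less. A gene was read from its probe of highest mean intensity and kept if detected on at least 3 arrays, which leaves out genes seen in the 2 NPK_3Month arrays alone. Probes were named from the platform annotation, with symbols checked against RefSeq (65 had no match and kept theirs).

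One limma fit (version 3.58.1, R 4.3.3) held all 4 groups and 20 samples and left 16 residual degrees of freedom; its two-sided p-values were adjusted by Benjamini-Hochberg over 12531 genes. The probe-level values come from the same fit on all detected probes. Where a gene was detected on 0 arrays of its dimmer group, the fold is a lower bound against the higher of each array's lowest detected level and the probe's own value. The number of arrays limits the precision.

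The members and gene lists were chosen with earlier results of these data known. Values of every sample or the range were given, in each role group, for the members with the smallest adjusted p in NPK against NP and in NPK_3Month against NPK_1Month, and for E2f1, Ccne1, Mcm2, Pcna and Rrm2. Members that fell or did not pass in NPK were named with their change, and of the other genes those that fell and the 4 with the smallest adjusted p in each comparison. The background correction and the fit were tested on simulated data. Replicate numbers did not pair the samples (correlations of -0.13 to 0.067). Alternatives covered scaling, offset, detection, probes, chips, single samples and covariates.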

Additional observations from a re-analysis of the deposited data

Results flagged for a closer look

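Of 74 sets of values (37 members in the NP and in the NPK samples), 5 held a sample far from the others of its group, and chance gives about 1 in 20. Rrm2 was 5.50 in NP replicate 3, the lowest of NP, with the next at 6.03. Rpa2 was 6.82 in the same sample, with the next at 7.31. Tyms was 8.61 in NP replicate 7, the lowest of NP, with a gap to the next sample of 0.726 of the group's range. Tk1 was 8.34 in NP replicate 8, the highest of NP, with the next at 7.82. E2f2 was 6.06 in NPK replicate 3, the lowest of NPK, with the next at 7.18.

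Members outside the tests gave signal in 1 group. E2f8 had a mean of 6.49 in NPK_3Month, against a highest NP sample of 4.88. E2f7 had a mean of 6.28 there, against a highest NP sample of 5.32.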

How the results depend on the processing

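The 2 samples at 3 months, chips that follow the groups, and dim probes such as those of Pcna, Ccne2 and Gins3 limit these results. Leaving out single samples gave 16 to 19 members higher in NPK than in NP (19 with all), 20 to 34 at 3 months against 1 month (33), 5 to 10 in NPK_1Month against NP (9) and 24 to 34 in NPK_3Month against NPK (33). The lowest counts came without NP replicate 1 and others, without NPK_3Month replicate 1 (20 and 24) and without NPK_1Month replicate 3 (5). Members lower in NPK than in NP were 3 to 5 (5), and those lower in NPK_1Month than in NP 1 to 7 (4), with 1 without NPK_1Month replicate 2, 2 without its replicate 1 and 7 without NP replicate 3. The call was kept in all 20 such runs by 19 of 24 members in NPK against NP (not by Cdc6, Mcm6, Orc6, Pcna and Uhrf1) and by 20 of 33 at 3 months against 1 month (not by Ccne2, Cdt1, Gins3, Lig1, Mcm10, Mcm7, Pcna, Pold1, Rfc3, Rfc4, Rfc5, Rpa2 and Tyms).

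With median scaling, 5 members were higher in NPK than in NP and 4 in NPK_1Month than in NP, and the members' median change became -0.14 and -0.064. In NPK against NP it also took the members with a positive change from 23 to 17 of the 37. Among the genes it turned were Orc6 (to -0.14), Fen1 (-0.069), Rpa2 (-0.40) and Lin54 (-0.47). It moved the share of higher genes among all calls from 45.2% to 12.2% in NPK against NP, from 49.2% to 66.4% at 3 months against 1 month, from 47.3% to 30.0% in NPK_1Month against NP and from 53.1% to 74.8% in NPK_3Month against NPK. Without the chip of NP replicates 1 to 5, 11 members were higher in NPK, and with chip as a random block 5 were higher in NPK_1Month than in NP. With seminal vesicle and skeletal muscle means as covariates, 19 were higher at 3 months than at 1 month, and with the 2 groups alone or the authors' values 23 and 24. With T and NK and B cell means, added after the data were seen, the counts were 7 (NPK against NP), 1 (NPK_1Month against NP) and 21 (NPK_3Month against NPK). The cause was not tested.

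Members lower in NPK than in NP numbered 1 in the chips of 1 barcode series, without the chip of NP replicates 6 to 8 and with the tissue covariates, 2 with chip as a random block, with the authors' values and without the chip of NPK replicates 1 to 5, and 0 with the immune covariates. Members lower in NPK_1Month than in NP fell from 4 to 0 with either pair of covariates and to 2 with chip as a random block. Single values turned for Cdc6 in NPK against NP (0.034 in the chips of 1 barcode series, 0.096 without the chip of NPK replicates 1 to 5) and in NPK_1Month against NP (0.39 with tissue covariates), and for Rfc5 there (-0.021 with immune covariates). The mean of all probes turned Rpa2 (-0.33), Tyms (-0.066) and Pole3 (0.12) in NPK against NP. It left 31 members called higher at 3 months against 1 month, without Mcm6 and Rpa2. At 3 months against 1 month, E2f2 (-0.35), Ccne1 (-0.22) and Cdc6 (-0.038), none of which had passed, turned with the tissue covariates, and no other member changed direction there or in NPK_3Month against NPK under the settings run.

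Genes called in all were 4173 in NPK against NP, and 2382 with chip as a random block, 1614 in the chips of 1 barcode series, 2755 without the chip of NP replicates 6 to 8, 2128 without that of NPK replicates 1 to 5, and 2145 and 1307 with the tissue and immune covariates. At 3 months against 1 month they were 2407, and 1411 with the authors' values, 1604 and 1600 with the covariates, 1338 with the 2 groups alone and 1110 without NPK_3Month replicate 1. In NPK_1Month against NP they were 4693, and 1504 and 1571 with the covariates. In NPK_3Month against NPK they were 4906, and 2463 with the immune covariates and 2734 without NPK_3Month replicate 1.

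The replicate number as a block, which did not pair the samples, gave 17, 32, 8 and 30 members higher in the 4 comparisons, and no sample correlated best with its own number. The authors' values were not used across the 2 sets of arrays, and the barcode series applies to NPK against NP alone.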
